A study of Mus musculus with 6 samples.

Results

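Semaphorins, plexins, neuropilins, Slits, Robos, netrins, Unc5 receptors, Eph receptors and ephrins are the families best known for steering growing axons, and 67 of the 28262 genes in the deposited table carry a protein-coding name of one of them. The members were taken by gene name and no measured value entered the rule, but they were chosen with earlier results of these data known. The name pattern also took *Unc50* and *Unc5cl*, which are not netrin receptors, so that 65 genes belong to the families proper. The 6 RNA-seq libraries came from purified Sertoli cells of the mouse, the somatic cells that line the seminiferous tubule and support germ cells. Mice were C57BL/6 and 20 days of age, and the cells were kept at 34 °C without treatment. The control group (3 replicates, labelled PA1flox/flox, written Pa1F/F here) carried floxed *Pa1* alleles, and the knockout group (3 replicates, labelled PA1-/-, written Amh-pa1-/- here) had these alleles deleted by a Cre recombinase under the *Amh* promoter. *Amh* is a Sertoli cell gene, so other cells that remained in a preparation would keep *Pa1*. PA1 is a subunit of the MLL3/4 histone methyltransferase complexes, and the comparison asks which transcripts depend on it in Sertoli cells. The study's methods call the replicates biological and its experiments independently repeated, but no source used here says whether they came from separate animals or cultures, so p-values measure the spread between these libraries, part of which may be technical. The counts of *Pa1* itself were not analysed here, and the genotypes rest on the labels.

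Guidance ligands act on nearby cells, either secreted or bound to a membrane. Semaphorins signal through plexins, and most of the secreted class 3 members need a neuropilin as co-receptor. Slits bind Robo receptors, netrins bind Dcc, neogenin and Unc5 receptors, and ephrins on one cell bind Eph receptor tyrosine kinases on its neighbour. Their downstream effectors act on the actin cytoskeleton, and in epithelia the same families take part in adhesion, cell sorting and tube formation.

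Among the 67 members, 59 passed the filter on low counts and were tested for a difference between the genotypes with edgeR's quasi-likelihood test, in 1 fit with all other expressed genes. At an adjusted p under 0.05 and at least a 2-fold change, Amh-pa1-/- cells had 12 members at a lower and 4 at a higher level. Over all 14919 tested genes, 6.56% were lower and 5.44% were higher by the same rule (12.0% in both directions), as compared with 20.3% and 6.78% of the tested members. With no fold threshold, 16 members were lower and 8 were higher, and the background was 17.1% and 18.2% of all tested genes (35.3% in both directions). The median log2 fold change of the tested members was -0.18, and that of all tested genes was 0.00. For 34 of the 59 tested members (57.6%) the 3 libraries of a genotype did not overlap those of the other, against 52.4% of all tested genes, so that this share was near the background. Plexins and semaphorins held 11 of the 16 changed members, but they are also a large part of the tested members, and shares by family are given below. None of the tested netrins, Unc5 receptors or ephrins, which are fewer, passed the test, though *Unc5b* and *Unc5c* passed without Amh-pa1-/- replicate 3.

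Replicates were unevenly spaced, which bears on every p-value below. The SD of the log2 ratio between a pair of libraries, over tested genes with a mean of at least 100 counts in the pair, was 0.14 for Pa1F/F replicates 1 and 3 and 0.13 for Amh-pa1-/- replicates 1 and 2, and 0.43 for each of the other pairs within a genotype. Pa1F/F replicate 2 and Amh-pa1-/- replicate 3 therefore stood apart from their groups. Without Amh-pa1-/- replicate 3, 15 members were lower and 4 higher at 2-fold (7.92% and 5.60% of all genes tested in that fit), and 22 and 12 passed the adjusted p alone (21.2% and 21.9%). The sources used here do not say whether the libraries of a close pair came from 1 animal or culture. With each close pair counted as 1 sample by summing it, which leaves n = 2 a genotype, 3 members were lower and 2 higher (2.85% and 2.68% of the genes tested), and 4 and 2 passed the adjusted p alone (4.22% and 4.43%). Total counts lay between 13203757 and 16231443 per library.

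The 5 members that kept their call in the 14 alternative fits run for each gene were *Ephb1*, *Plxnd1* and *Plxnc1*, which were lower, and *Sema3d* and *Plxnb3*, which were higher. With glmTreat, edgeR's test against a 2-fold change, the 3 lower members kept the call and the 2 higher ones lost it. The promoters of these members are printed so that the 3 genes that fell and the 2 that rose can be read side by side. Each line gives the 250 bases before the RefSeq start on the gene's own strand (GRCm38.p6), 5′ to 3′, with capitals marking GC boxes (GGGCGG, or CCGCCC on the other strand).
Ephb1, chr9:102354694-102354943, minus strand: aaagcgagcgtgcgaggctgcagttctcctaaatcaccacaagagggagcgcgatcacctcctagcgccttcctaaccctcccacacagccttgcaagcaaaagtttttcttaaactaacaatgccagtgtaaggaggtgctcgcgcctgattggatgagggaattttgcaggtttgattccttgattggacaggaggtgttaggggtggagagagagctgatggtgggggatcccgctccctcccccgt
Plxnd1, chr6:115995006-115995255, minus strand: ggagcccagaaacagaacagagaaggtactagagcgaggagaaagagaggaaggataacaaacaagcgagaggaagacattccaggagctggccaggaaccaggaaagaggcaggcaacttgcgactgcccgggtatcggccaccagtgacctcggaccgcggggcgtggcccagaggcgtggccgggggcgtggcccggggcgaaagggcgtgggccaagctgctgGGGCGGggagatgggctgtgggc
Plxnc1, chr10:94944846-94945095, minus strand: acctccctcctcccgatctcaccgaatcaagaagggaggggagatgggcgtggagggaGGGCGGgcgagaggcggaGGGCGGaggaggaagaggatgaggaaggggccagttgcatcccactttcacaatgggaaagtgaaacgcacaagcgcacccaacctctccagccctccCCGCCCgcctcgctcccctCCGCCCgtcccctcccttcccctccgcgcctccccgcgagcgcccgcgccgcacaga
Sema3d, chr5:12382916-12383165, plus strand: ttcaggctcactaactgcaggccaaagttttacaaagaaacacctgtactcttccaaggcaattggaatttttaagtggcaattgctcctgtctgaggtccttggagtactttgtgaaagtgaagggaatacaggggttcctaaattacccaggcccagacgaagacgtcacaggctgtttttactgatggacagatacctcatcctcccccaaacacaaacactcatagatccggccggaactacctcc
Plxnb3, chrX:73756853-73757102, plus strand: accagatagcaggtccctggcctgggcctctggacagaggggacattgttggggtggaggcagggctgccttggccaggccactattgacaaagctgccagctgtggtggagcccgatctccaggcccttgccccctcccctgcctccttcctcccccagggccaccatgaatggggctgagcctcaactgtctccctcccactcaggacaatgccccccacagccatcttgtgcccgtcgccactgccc

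Among these 5 genes, the promoters of the 3 that fell were the richer in CpG dinucleotides, and the other changed members were not compared. Over the 300 bases from 250 before to 50 after the start, *Plxnc1* held 30 CpG, *Plxnd1* 23 and *Ephb1* 14, whereas *Sema3d* held 8 and *Plxnb3* 4. The RefSeq start of *Sema3d*, at 12383166, lies before the gene's start in the deposited table, at 12383385, and a window at the latter was not counted. The median was 19.5 over the 74 promoters of the 58 members with an entry in the RefSeq table, and 7 over all 32851 promoters of the table, which also holds noncoding genes. *Plxnc1* had 4 GC boxes and *Plxnd1* 1 in the printed bases, and the other 3 genes had none. A GC box was found in 70.3% of the members' promoters and 35.7% of all promoters. The AP-1 motif TGANTCA, which reads the same on the other strand and which JUN-containing dimers bind, was in none of the 5 promoters. Among the 74 promoters of members it was found in 3 (4.05%, in *Sema4c*, *Sema4d* and *Sema6b*), as compared with 7.81% of all promoters. The cyclic AMP response element TGACGTCA was found in 1 (1.35%, in *Epha2*), as compared with 1.79% of all promoters. No motif contains another, and a match or its absence describes these windows only.

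Plexins are the signalling receptors for semaphorins, and 4 of the 9 changed at least 2-fold (44.4%, against 12.0% of all tested genes). *Plxnd1*, *Plxnc1* and *Plxna4* fell and *Plxnb3* rose, so that members of 1 receptor family moved in opposite directions. *Plxnc1* (ENSMUSG00000074785, chromosome 10 from 94790866 to 94944835 of GRCm38), the receptor of semaphorin 7A, had 4635, 4256 and 4576 normalized counts in Pa1F/F replicates 1, 2 and 3, as compared with 729, 767 and 747 in replicates 1, 2 and 3 of the Amh-pa1-/- group. Normalized counts are counts scaled by edgeR's TMM factors to a common library size, and all values below follow this order of replicates. The groups lay far apart and the libraries of each were close to each other, and the mean fell 6.00-fold (log2 fold change -2.59, standard error 0.06, edgeR adjusted p = 5.15e-06). This was the smallest standard error among the changed members, and the log2 fold change stayed between -2.62 and -2.55 over 14 alternative fits.

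*Plxnd1* (ENSMUSG00000030123, chromosome 6 from 115954811 to 115995005) encodes the plexin that binds semaphorin 3E directly and is best known from blood vessels. Its normalized counts were 794, 1678 and 782 in Pa1F/F cells, as compared with 132, 114 and 136 in Amh-pa1-/- cells (log2 fold change -3.09, standard error 0.33, edgeR adjusted p = 0.000965). Pa1F/F replicate 2 stood above the other control libraries. Without it the log2 fold change was -2.63, still past the threshold (edgeR adjusted p = 0.000265). *Plxna4* (ENSMUSG00000029765, chromosome 6 from 32144268 to 32588192), a receptor for class 6 semaphorins and, with neuropilins, for class 3, had 497, 456 and 528 in Pa1F/F cells, as compared with 102, 117 and 223 in Amh-pa1-/- cells. It fell 3.35-fold in the mean (log2 fold change -1.74, standard error 0.29, edgeR adjusted p = 0.00451), with Amh-pa1-/- replicate 3 the highest of the knockout libraries and still below every control. With the close pairs summed, *Plxna4* did not pass (edgeR adjusted p = 0.0709).

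The 3 class B plexins, which bind class 4 and class 5 semaphorins, were each higher in Amh-pa1-/- cells at an adjusted p under 0.05, by very different amounts. By this rule 18.2% of all tested genes were higher. *Plxnb3* (ENSMUSG00000031385, chromosome X from 73757090 to 73772514), a receptor of semaphorin 5A, had 159, 186 and 153 in Pa1F/F cells, as compared with 458, 459 and 823 in Amh-pa1-/- cells. Every knockout library lay above every control library, with replicate 3 the highest (log2 fold change 1.80, standard error 0.25, edgeR adjusted p = 0.00253). *Plxnb1* had 2013, 2269.5 and 2059 against 3380.3, 3561 and 2809.5 (log2 fold change 0.62, standard error 0.10, edgeR adjusted p = 0.004), a 1.54-fold rise in the mean. *Plxnb2*, the plexin with the most normalized counts over all 6 libraries though not in the Pa1F/F libraries, where *Plxna1* had more, had 7082, 6945 and 7230.4 against 8167, 8137 and 8342 (log2 fold change 0.21, standard error 0.05, edgeR adjusted p = 0.0215). The groups of *Plxnb2* did not overlap, but the difference was small, and its adjusted p in edgeR lay between 0.0512 and 0.0806 when Pa1F/F replicate 1, 2 or 3 or Amh-pa1-/- replicate 1 or 2 was left out. The 3 other class A plexins did not pass. *Plxna1*, the most abundant of them per length, had a log2 fold change of -0.11 (edgeR adjusted p = 0.529), *Plxna2* -0.68 (edgeR adjusted p = 0.0659) and *Plxna3* -0.14 (edgeR adjusted p = 0.751). *Plxna2* passed without Amh-pa1-/- replicate 3 (log2 fold change -0.44, edgeR adjusted p = 0.0297).

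Both neuropilins, the co-receptors for class 3 semaphorins, were lower in Amh-pa1-/- cells at an adjusted p under 0.05. By this rule 17.1% of all tested genes were lower. *Nrp1* (ENSMUSG00000025810, chromosome 8 from 128358604 to 128503363) had 808, 825 and 719 in Pa1F/F cells, as compared with 312, 305 and 555 in Amh-pa1-/- cells (log2 fold change -1.003, standard error 0.23, edgeR adjusted p = 0.0165), so that its change lay on the 2-fold threshold. Amh-pa1-/- replicate 3 was again the highest knockout library and lay below the lowest control. *Nrp1* was short of 2-fold, or of the adjusted p, without Pa1F/F replicate 1 or 2 or Amh-pa1-/- replicate 1 or 2, with log2 fold changes of -0.98, -0.97, -0.86 and -0.84. *Nrp2* had 1834, 1869 and 2142 against 1474, 1443 and 1468, a smaller change with no overlap between the groups (log2 fold change -0.41, standard error 0.07, edgeR adjusted p = 0.00495).

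**Figure D1:**
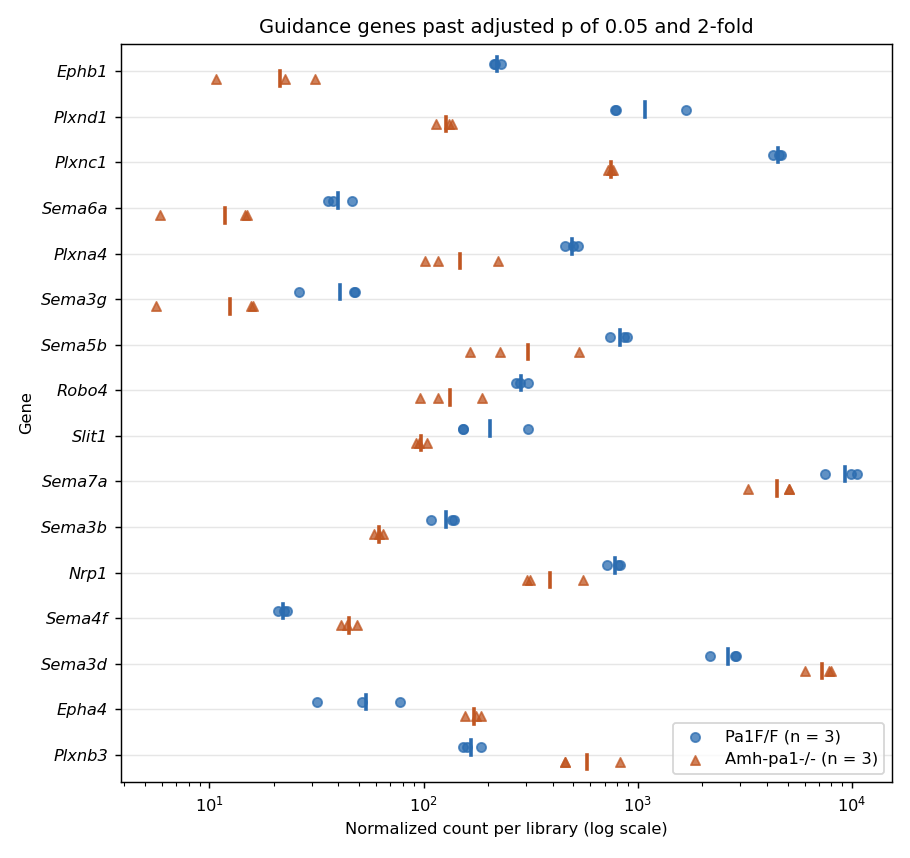
Normalized count in each library (log axis) for the 16 members past an adjusted p of 0.05 and 2-fold, one gene a row. Blue circles are the 3 Pa1F/F libraries, orange triangles the 3 Amh-pa1-/- libraries and vertical bars the group means. The groups do not overlap for any of the 16 genes, 12 are lower and 4 higher in Amh-pa1-/- cells, and single libraries such as Pa1F/F replicate 2 for Plxnd1 and Slit1 lie apart from their group.

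Semaphorins are the largest of the families, with 20 members of which 19 were tested. At 2-fold, 5 were lower (*Sema6a*, *Sema3g*, *Sema5b*, *Sema7a* and *Sema3b*) and 2 were higher (*Sema3d* and *Sema4f*), which is 26.3% and 10.5% of those tested, against 6.56% and 5.44% of all tested genes. A further 3 were lower at an adjusted p under 0.05 with less than a 2-fold change. *Sema7a* (ENSMUSG00000038264, chromosome 9 from 57940112 to 57962865) is a semaphorin with a lipid anchor that binds plexin C1 and β1 integrins, and it had the highest level per length of any member. Its normalized counts were 10581, 7433 and 9828 in Pa1F/F cells, as compared with 5063, 5065 and 3282 in Amh-pa1-/- cells, and the groups were separate (log2 fold change -1.05, standard error 0.20, edgeR adjusted p = 0.00802). Both the ligand and its plexin were thus lower in the same libraries, *Plxnc1* by more than *Sema7a*, whereas *Itgb1*, which encodes the β1 integrin chain, was higher (log2 fold change 0.52, standard error 0.08, edgeR adjusted p = 0.00345). *Sema7a* was short of 2-fold without Pa1F/F replicate 1 (log2 fold change -0.95) and without Amh-pa1-/- replicate 3 (-0.87), both with an adjusted p under 0.05 in edgeR.

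The secreted class 3 semaphorins split. *Sema3d* (ENSMUSG00000040254, chromosome 5 from 12383385 to 12588948) rose from 2877, 2175 and 2849.6 normalized counts in Pa1F/F cells to 7941, 7818 and 6058 in Amh-pa1-/- cells, 2.76-fold in the mean (log2 fold change 1.47, standard error 0.15, edgeR adjusted p = 0.000769). Its knockout libraries all lay above its controls, and of all settings run its call was lost under glmTreat alone, where no member was called higher. *Sema3b* (ENSMUSG00000057969, chromosome 9 from 107597674 to 107609229) had 139, 108 and 136 against 64.4, 58.6 and 62.1 (log2 fold change -1.05, standard error 0.16, edgeR adjusted p = 0.00309), and was just short of 2-fold without Pa1F/F replicate 1 (log2 fold change -0.98) or Amh-pa1-/- replicate 2 (-0.997). *Sema3g* (ENSMUSG00000021904, chromosome 14 from 31217860 to 31230350), a low gene, had 48.0, 47.4 and 26.2 against 15.6, 5.63 and 16.03 (log2 fold change -1.68, standard error 0.42, edgeR adjusted p = 0.0216). Its lowest raw count was 5, and it did not pass without Pa1F/F replicate 1 (edgeR adjusted p = 0.0769) or 2 (edgeR adjusted p = 0.0604). *Sema3e*, the ligand of plexin D1, had 319, 233 and 354 against 763, 733 and 292. Amh-pa1-/- replicates 1 and 2 lay above the controls and replicate 3 among them, and the test was not passed (log2 fold change 0.98, standard error 0.36, edgeR adjusted p = 0.0765). *Sema3a*, *Sema3c* and *Sema3f* did not pass either, with log2 fold changes of 0.64, 0.42 and -0.26.

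In classes 5 and 6, which span the membrane, 4 of the 5 tested members were lower at an adjusted p under 0.05, 2 of them by at least 2-fold, whereas 17.1% and 6.56% of all tested genes were. *Sema5b* (ENSMUSG00000052133, chromosome 16 from 35541145 to 35664732), a class 5 semaphorin with thrombospondin repeats, had 858, 886 and 744 in Pa1F/F cells, as compared with 165, 226 and 530.0 in Amh-pa1-/- cells. Its knockout libraries were widely spread, with replicate 3 nearest to the controls (log2 fold change -1.43, standard error 0.40, edgeR adjusted p = 0.0315). Leaving out any 1 library other than Amh-pa1-/- replicate 3 lifted *Sema5b* above the adjusted p of 0.05, with edgeR adjusted p-values of 0.0866, 0.0717 and 0.0705 without Pa1F/F replicates 1, 2 and 3, and of 0.0632 and 0.1 without Amh-pa1-/- replicates 1 and 2. *Sema5a*, a ligand of plexin B3, had 2421, 2094 and 2412 against 1159.6, 1129 and 1551 (log2 fold change -0.85, standard error 0.13, edgeR adjusted p = 0.0037), so that this ligand was lower where its receptor *Plxnb3* was higher. *Sema6a* (ENSMUSG00000019647, on chromosome 18), a ligand of plexins A2 and A4, had 46.2, 37.8 and 35.7 against 5.86, 14.6 and 15.03 (log2 fold change -1.75, standard error 0.35, edgeR adjusted p = 0.0097), at raw counts of at most 51. With the close pairs summed it did not pass (edgeR adjusted p = 0.0568). *Sema6d*, a ligand of plexin A1, had 889, 751 and 945 against 494, 527 and 408 (log2 fold change -0.86, standard error 0.13, edgeR adjusted p = 0.00315). *Sema6c*, the most abundant class 6 member, had 7088, 7402 and 6824 against 6479, 6525 and 5852, and though the groups did not overlap it did not pass (log2 fold change -0.18, standard error 0.07, edgeR adjusted p = 0.0853).

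Class 4 semaphorins bind class B plexins, and 2 of the 6 passed the adjusted p (33.3%, near the 35.3% of all tested genes). *Sema4b*, the most abundant of them, had 2428, 2643 and 2449 in Pa1F/F cells, as compared with 1285, 1252 and 1240.5 in Amh-pa1-/- cells (log2 fold change -0.99, standard error 0.05, edgeR adjusted p = 9.79e-05). Its change was the closest to the 2-fold threshold from the outside, at 1.99-fold in the mean, and it had the second smallest adjusted p of the members. *Sema4f* (ENSMUSG00000000627, chromosome 6 from 82911885 to 82939769) lay just inside the threshold with 20.8, 22.3 and 23.1 against 41.0, 43.9 and 49.1 (log2 fold change 1.02, standard error 0.19, edgeR adjusted p = 0.0076), and was short of 2-fold without Pa1F/F replicate 1 (log2 fold change 0.98) or Amh-pa1-/- replicate 3 (0.94). *Sema4g* had 35.3, 55.2 and 52.4 against 8.79, 7.89 and 34.1. The groups were separate but replicate 3 was far above the other knockout libraries, and it did not pass (log2 fold change -1.47, standard error 0.55, edgeR adjusted p = 0.0765). Without that replicate it was lower (log2 fold change -2.49, edgeR adjusted p = 0.00131). *Sema4a*, *Sema4c* and *Sema4d* did not pass, with log2 fold changes between 0.08 and 0.29. Without Amh-pa1-/- replicate 3, *Sema4a* passed (log2 fold change 0.60, edgeR adjusted p = 0.0189). *Sema4c* and *Sema4d* then changed sign (-0.22 and -0.02) and did not pass.

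**Figure D2:**
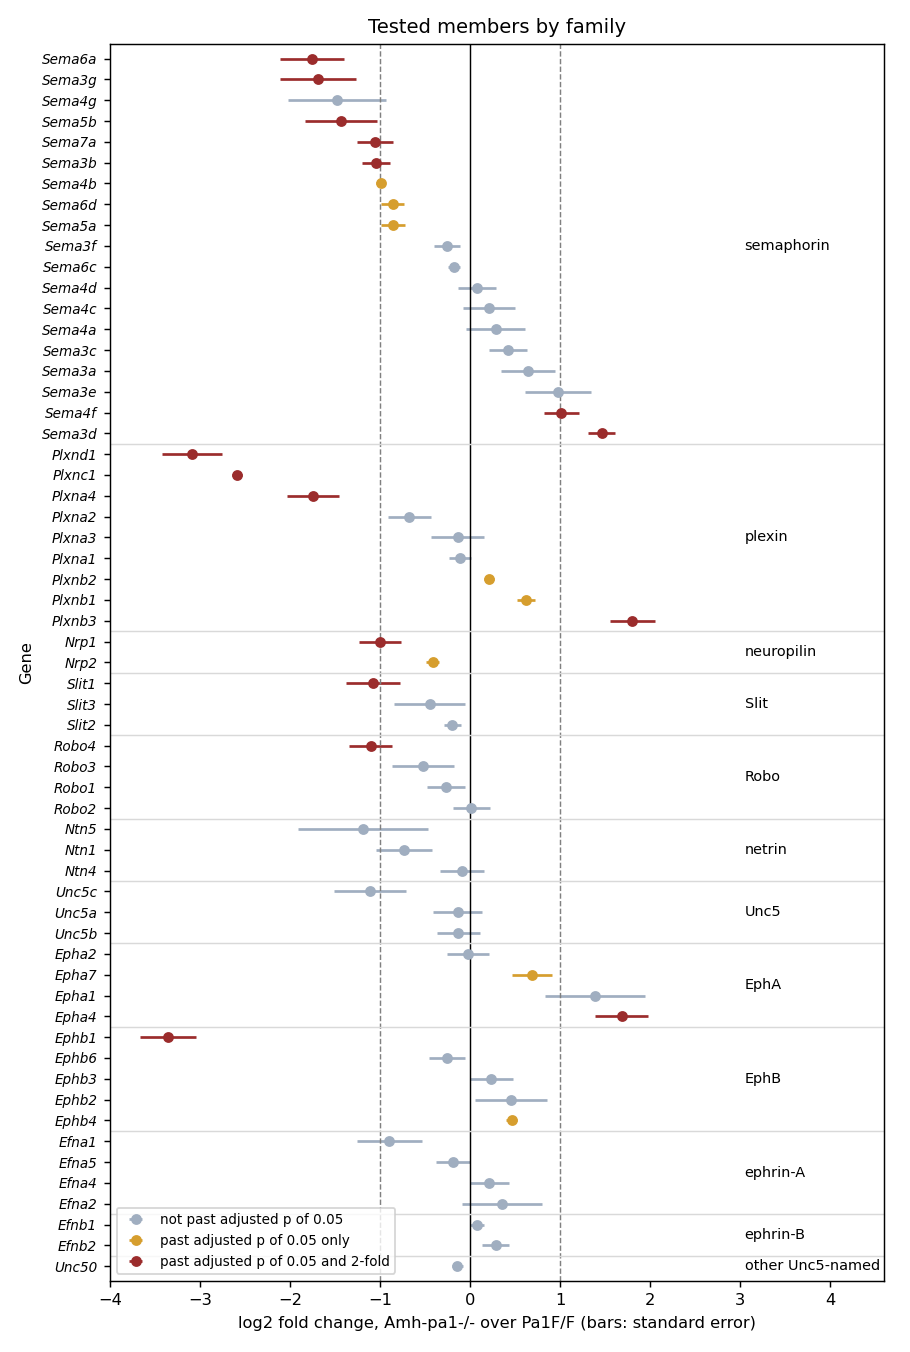
Fitted log2 fold change of Amh-pa1-/- over Pa1F/F for the 59 tested members, grouped by family, with bars of 1 standard error. Red points passed an adjusted p of 0.05 and 2-fold (dashed lines at -1 and 1), yellow points the adjusted p alone and grey points neither. Plexins run from -3.09 to 1.80, while the ephrins, netrins and Unc5 receptors hold grey points only.

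Of the Slit ligands and Robo receptors, 2 of 7 were lower at 2-fold and none was higher, against 6.56% and 5.44% of all tested genes. *Slit1* (ENSMUSG00000025020, chromosome 19 from 41600257 to 41743665) had 152, 308 and 153 normalized counts in Pa1F/F cells, as compared with 91.8, 94.6 and 104 in Amh-pa1-/- cells (log2 fold change -1.08, standard error 0.30, edgeR adjusted p = 0.0297). Pa1F/F replicate 2 stood well above the other controls, and without it the log2 fold change was -0.66, short of 2-fold. Without Amh-pa1-/- replicate 1 or 2, *Slit1* missed the adjusted p (edgeR adjusted p = 0.0892 and 0.086), as it did in limma-voom (adjusted p = 0.053) and with the close pairs summed (edgeR adjusted p = 0.115). *Slit2*, the most abundant gene of the group in normalized counts, had 1442, 1412 and 1594 against 1369.5, 1394 and 1124 and did not pass (log2 fold change -0.19, standard error 0.10, edgeR adjusted p = 0.163). *Slit3* had 202, 226 and 202 against 105, 89.0 and 267, where replicate 3 lay above the controls and the other knockout libraries below them (log2 fold change -0.45, standard error 0.40, edgeR adjusted p = 0.416). Without that replicate its log2 fold change was -1.11 (edgeR adjusted p = 0.000686). *Robo4* (ENSMUSG00000032125, chromosome 9 from 37401897 to 37415115), a Robo best known from endothelium, had 308, 281 and 269.5 against 95.7, 117 and 186 (log2 fold change -1.10, standard error 0.24, edgeR adjusted p = 0.0124), and was short of 2-fold without Amh-pa1-/- replicate 1 (log2 fold change -0.91). *Robo1*, *Robo2* and *Robo3*, best known from neurons, had log2 fold changes of -0.26, 0.02 and -0.52 and did not pass.

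Netrins and Unc5 receptors showed no call. *Ntn4*, a laminin-related netrin of basement membranes, was the most abundant and had 2879, 1868 and 2923 in Pa1F/F cells, as compared with 1922, 2032 and 3259 in Amh-pa1-/- cells (log2 fold change -0.09, standard error 0.25, edgeR adjusted p = 0.809). The groups overlapped, with Pa1F/F replicate 2 low and Amh-pa1-/- replicate 3 high within their groups. *Ntn1* had 56.2, 77.5 and 37.8 against 27.3, 33.8 and 42.1 (log2 fold change -0.73, standard error 0.31, edgeR adjusted p = 0.112). *Unc5b*, the most abundant Unc5 receptor, had 998, 953 and 917 against 711, 656 and 1253 (log2 fold change -0.13, standard error 0.24, edgeR adjusted p = 0.705). Its knockout replicates 1 and 2 lay below the controls and replicate 3 above them, and without replicate 3 it passed with a log2 fold change of -0.48 (edgeR adjusted p = 0.00182). *Unc5a* and *Unc5c* did not pass, with log2 fold changes of -0.13 and -1.11, nor did *Unc50* (-0.14). Without Amh-pa1-/- replicate 3, *Unc5c* was lower past 2-fold (log2 fold change -1.39, edgeR adjusted p = 0.0475). The netrin receptor gene *Neo1*, which is outside the name rule, was lower by a small amount (log2 fold change -0.17, standard error 0.05, edgeR adjusted p = 0.0336).

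Eph receptors moved both ways, and none of their tested ligands passed the test. *Ephb1* (ENSMUSG00000032537, chromosome 9 from 101922128 to 102354693), a receptor for ephrin-B ligands, had 216, 213 and 231 normalized counts in Pa1F/F cells, as compared with 10.7, 22.5 and 31.1 in Amh-pa1-/- cells. It fell 10.3-fold in the mean, the largest fall of any tested member, and the lowest control lay well above the highest knockout library (log2 fold change -3.35, standard error 0.32, edgeR adjusted p = 0.000619). *Ephb4*, a receptor for ephrin-B2, was higher by less than 2-fold, with 966, 928 and 907 against 1359.7, 1289 and 1213 (log2 fold change 0.46, standard error 0.06, edgeR adjusted p = 0.00245). *Ephb2*, *Ephb3* and *Ephb6* did not pass, with log2 fold changes of 0.45, 0.24 and -0.26. Without Amh-pa1-/- replicate 3, *Ephb6* passed (log2 fold change -0.52, edgeR adjusted p = 0.00779), while *Ephb2* was at 0.09 and *Ephb3* at 0.31, and neither passed. *Epha4* (ENSMUSG00000026235, chromosome 1 from 77367185 to 77515088), which binds ephrins of both classes, rose from 51.7, 32.0 and 77.6 to 185, 155 and 176, 3.21-fold in the mean (log2 fold change 1.69, standard error 0.30, edgeR adjusted p = 0.00583). With the close pairs summed it did not pass (edgeR adjusted p = 0.0511). *Epha7* was higher in the mean, with 39.0, 29.0 and 33.6 against 57.6, 63.1 and 44.1 (log2 fold change 0.69, standard error 0.22, edgeR adjusted p = 0.0487), at the edge of the adjusted p, which it missed in 11 of 14 alternative fits, among them those without Pa1F/F replicate 1, 2 or 3 or Amh-pa1-/- replicate 1 or 2 (edgeR adjusted p between 0.0792 and 0.139).

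*Epha2*, the most abundant Eph receptor, had 4811, 4907 and 4704 against 5653, 5616 and 2963. Amh-pa1-/- replicates 1 and 2 lay above the controls and replicate 3 far below them, and the test was not passed (log2 fold change -0.02, standard error 0.23, edgeR adjusted p = 0.956). Without replicate 3 the log2 fold change was 0.23 (edgeR adjusted p = 0.00315), so that its direction rested on that library. *Epha1* had 27.2, 28.1 and 23.1 against 37.1, 34.9 and 133 and did not pass (log2 fold change 1.39, standard error 0.56, edgeR adjusted p = 0.0957). It overlaps *Zyx* on the other strand, which had between 7862 and 14460 counts, and the sources do not state whether the counting used strand. Among ephrins, *Efnb2* had 1559, 1085 and 1608 against 1846, 1774 and 1557 (log2 fold change 0.28, standard error 0.15, edgeR adjusted p = 0.193), and *Efnb1* had 1059, 963 and 1140.0 against 1094, 1076 and 1167 (log2 fold change 0.08, standard error 0.08, edgeR adjusted p = 0.475). The tested ephrin-A genes *Efna1*, *Efna2*, *Efna4* and *Efna5* had log2 fold changes of -0.90, 0.36, 0.22 and -0.19, and the groups overlapped for every tested ephrin. A missed threshold does not show that ephrin levels were equal, and for the 2 ephrin-B genes the standard errors were 0.08 and 0.15 on the log2 scale.

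Untested members were *Sema6b*, *Unc5d*, *Unc5cl*, *Efna3*, *Efnb3*, *Epha3*, *Epha5* and *Epha8*, whose counts lay between 0 and 17 in all libraries. A difference in these genes was not detectable at this depth, where a count of 0 allows up to 3 counts, counting error only. For each changed member the exact two-sided permutation test over the 6 libraries gave p = 0.1, the smallest value 3 against 3 allows. Of the 16 changed members, 5 overlap another listed gene, and none of these other genes had more than 20 counts in a library.

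Levels of different genes were compared as CPM (counts scaled to a common library size) per kilobase of exon, with exon lengths from a newer annotation than the authors used. In Pa1F/F cells *Sema7a* stood first with 190.0 ± 33.7 (SD, n = 3), followed by *Epha2* with 69.8 ± 1.47 and *Plxnb2* with 58.9 ± 1.19 (SD, n = 3 each). *Ntn4* (44.9 ± 10.49) and *Sema6c* (44.9 ± 1.83) came next and did not differ beyond their spread (SD, n = 3 each), and *Plxnc1* (35.4 ± 1.61) and *Plxna1* (33.2 ± 1.19) followed. In Amh-pa1-/- cells *Sema7a* was at 91.5 ± 21.1, *Epha2* at 68.9 ± 22.4 and *Plxnb2* at 68.3 ± 0.922 (SD, n = 3 each). *Sema7a* lay above *Epha2* in each knockout library, and below *Plxnb2* in replicate 3. *Sema3d* moved from 20.0 ± 3.02 to 55.2 ± 7.999, to above *Ntn4* in the mean, and *Plxnc1* dropped from 35.4 ± 1.61 to 5.90 ± 0.150 (SD, n = 3 each). The plexins that fell otherwise had modest levels, with *Plxnd1* at 9.30 ± 4.40 and *Plxna4* at 2.30 ± 0.167 in Pa1F/F cells, and *Ephb1* was at 2.12 ± 0.0923 (SD, n = 3 each).

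**Figure D3:**
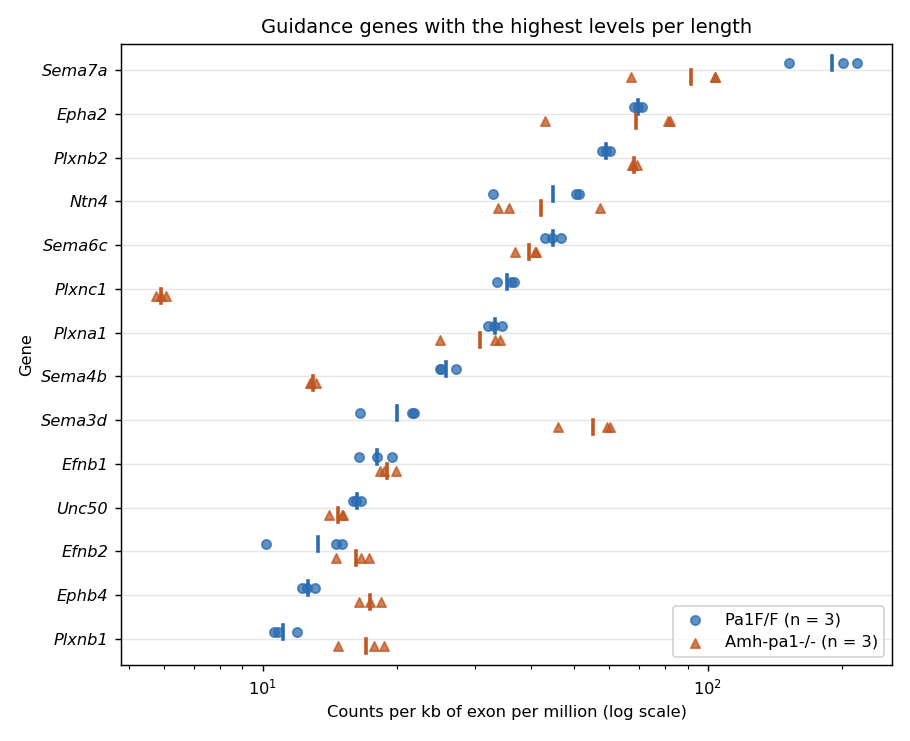
CPM per kilobase of exon (log axis) in each library for the 14 members with the highest levels in either genotype, ordered by the Pa1F/F mean. Blue circles are Pa1F/F libraries, orange triangles Amh-pa1-/- libraries and vertical bars the means of 3. Sema7a has the highest mean in both genotypes, Plxnc1 drops from 35.4 to 5.90 and Sema3d rises from 20.0 to 55.2.

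Other genes of the same pathways were taken from lists fixed by name, also chosen with earlier results of these data known. Of 22 co-receptors and further ligands 14 were tested, of which 2 were lower and 1 higher at 2-fold (14.3% and 7.14%, against 6.56% and 5.44% of all genes), with a median log2 fold change of -0.47. *Gpc1*, a heparan sulfate proteoglycan that binds Slits, was lower with 3155, 3382 and 3227 in Pa1F/F cells, as compared with 1260.2, 1248 and 1632 in Amh-pa1-/- cells (log2 fold change -1.24, standard error 0.11, edgeR adjusted p = 0.000513). *Plxdc1*, a membrane protein with a plexin-like domain, had 460.3, 489 and 506 against 154, 155 and 76.2 (log2 fold change -1.92, standard error 0.26, edgeR adjusted p = 0.00215). *Flrt2*, a ligand of Unc5 receptors, rose from 1012, 964 and 1114 to 2815, 2959 and 3033 (log2 fold change 1.51, standard error 0.07, edgeR adjusted p = 6.99e-05). The tested Unc5 receptors did not pass, and *Unc5d* was too low to be tested.

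Of 48 cytoplasmic effectors and processing enzymes 47 were tested, of which 4 were lower and 6 higher at 2-fold (8.51% and 12.8%, against 6.56% and 5.44% of all genes), with a median log2 fold change of 0.04. Of the 3 Slit-Robo GTPase-activating proteins, *Srgap1* fell (log2 fold change -1.75, standard error 0.22, edgeR adjusted p = 0.00181) and *Srgap3* rose (log2 fold change 1.28, standard error 0.14, edgeR adjusted p = 0.00106). *Srgap2* rose by less than 2-fold (log2 fold change 0.39, standard error 0.08, edgeR adjusted p = 0.00908). *Dpysl5*, of the collapsin response mediator family that acts below semaphorins, was lower (log2 fold change -2.77, standard error 0.37, edgeR adjusted p = 0.00211), with 532, 259 and 568 against 83.9, 72.1 and 43.1. The exchange factor *Vav3*, used by Eph receptors, fell (log2 fold change -1.51, standard error 0.24, edgeR adjusted p = 0.00386), as did the tyrosine kinase *Fes* (log2 fold change -1.004, standard error 0.29, edgeR adjusted p = 0.0338), which missed the call in 9 of 14 alternative fits, among them those without Pa1F/F replicate 1, 2 or 3 or Amh-pa1-/- replicate 1 or 2 (log2 fold changes from -1.06 to -0.82). *Rnd1*, whose product binds plexins, had a log2 fold change of 1.64, the kinase *Pak1* 1.22 and the actin-binding *Ablim1* 1.78 (edgeR adjusted p = 0.00362, 0.000124 and 0.00764). With the close pairs summed, *Rnd1* and *Ablim1* did not pass (edgeR adjusted p = 0.0623 and 0.0804). *Adam10*, a protease that sheds ephrins, rose from 5177, 4819 and 5619 to 14827, 14328 and 9479 (log2 fold change 1.31, standard error 0.17, edgeR adjusted p = 0.00208), and *Grip1*, a scaffold that binds ephrin-B tails, rose from 23.6, 29.0 and 26.2 to 88.8, 81.1 and 178 (log2 fold change 2.14, standard error 0.35, edgeR adjusted p = 0.00439).

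Several guidance genes are also expressed by vessels, macrophages and contractile cells, so the markers of other cell types are given beside these results. Tested markers are counted as lower or higher at an adjusted p under 0.05 in edgeR with no fold threshold, which 17.1% and 18.2% of all genes met. In bulk RNA, fewer cells of a type and less RNA per cell cannot be told apart. The summed level of 15 Sertoli cell markers ran from 20506 to 21595 CPM in Pa1F/F and from 13001 to 17219.6 in Amh-pa1-/- libraries, with 4 of 13 tested lower and 1 higher. *Clu* made up most of this sum, with 194105, 193511 and 192489 normalized counts against 105693, 107472 and 146325 (log2 fold change -0.69, edgeR adjusted p = 0.022). *Inha*, *Gata4* and *Aard* were also lower (log2 fold changes -1.23, -0.88 and -0.27), and *Dmrt1* was higher (0.64). *Amh*, with 186, 254 and 179 against 43.9, 48.4 and 365, did not pass, nor did *Dhh* or *Fshr*. *Rhox5* and *Trf* were too low to be tested, whereas *Sox9* and *Wt1* had 3166 counts or more in every library and did not pass. Of 10 endothelial markers 9 were in the table, and their sum ran from 117 to 122.7 CPM in Pa1F/F and from 63.0 to 102 in Amh-pa1-/- libraries. *Cdh5* made up most of it, *Cldn5* and *Emcn* had at most 3 counts in any library, and 2 of the 3 tested were lower. The other, *Kdr*, had 62.5, 99.7 and 69.2 against 80.04, 74.4 and 485, far higher in Amh-pa1-/- replicate 3 than elsewhere, and did not pass (log2 fold change 1.47, standard error 0.75, edgeR adjusted p = 0.172). Macrophage markers ran from 124 to 137 CPM in Pa1F/F and from 75.2 to 92.9 in Amh-pa1-/- libraries, with 6 of 8 tested lower, and Leydig cell markers from 838 to 933 CPM in Pa1F/F and from 177 to 333 in Amh-pa1-/- libraries, with 3 of 4 tested lower while *Cyp17a1* and *Insl3* had at most 3 counts. The summed level of peritubular myoid markers ran from 369 to 434 CPM in Pa1F/F and from 1097 to 1623 in Amh-pa1-/- libraries, and 2 of 6 tested were higher. *Acta2* made up most of the sum, with 3129, 2537 and 3239 normalized counts against 12312, 11886 and 15383, and *Mylk* had 2039, 2162 and 2216 against 3896, 3953 and 5221. *Myh11* had 649, 481 and 580.0 against 216, 164 and 1605, and, like *Actg2* and *Des*, lay below every control in Amh-pa1-/- replicates 1 and 2 and above every control in replicate 3. Stromal fibroblast markers ran from 2741 to 3589.6 CPM in Pa1F/F and from 1808 to 3387 in Amh-pa1-/- libraries (1 of 5 tested lower), and Schwann cell markers from 36.1 to 46.5 CPM in Pa1F/F and from 31.5 to 63.7 in Amh-pa1-/- libraries (1 of 3 tested lower). Mesothelial markers ran from 345 to 361 CPM in Pa1F/F and from 344 to 448 in Amh-pa1-/- libraries, with 3 of 6 tested higher, and *Wt1*, also a Sertoli cell marker, made up most of that sum. *Upk3b* rose from 6.34, 4.84 and 14.7 normalized counts to 230.4, 242 and 339 (log2 fold change 4.98, standard error 0.36, edgeR adjusted p = 0.000249) and *Krt19* from 2.72, 0.968 and 1.05 to 51.7, 59.7 and 55.1 (log2 fold change 5.00, standard error 0.35, edgeR adjusted p = 0.000218), with every knockout library above every control. *Lrrn4* also rose (log2 fold change 1.99, edgeR adjusted p = 0.00168). *Msln* (log2 fold change -0.53, edgeR adjusted p = 0.261), *Upk1b* (0.38, edgeR adjusted p = 0.352) and *Wt1* did not pass. Germ cell markers were near 0, with spermatogonia from 4.54 to 7.92 CPM in Pa1F/F and from 2.30 to 5.38 in Amh-pa1-/- libraries (3 of 3 tested lower), spermatocytes from 2.40 to 3.56 CPM in Pa1F/F and from 3.25 to 6.34 in Amh-pa1-/- libraries and spermatids from 6.85 to 7.70 CPM in Pa1F/F and from 6.36 to 6.77 in Amh-pa1-/- libraries. The part of these cell types in the changes of *Plxnd1*, *Plxnc1*, *Robo4*, *Nrp1*, *Sema3g*, *Sema3d* and the other members was not tested.

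**Figure D4:**
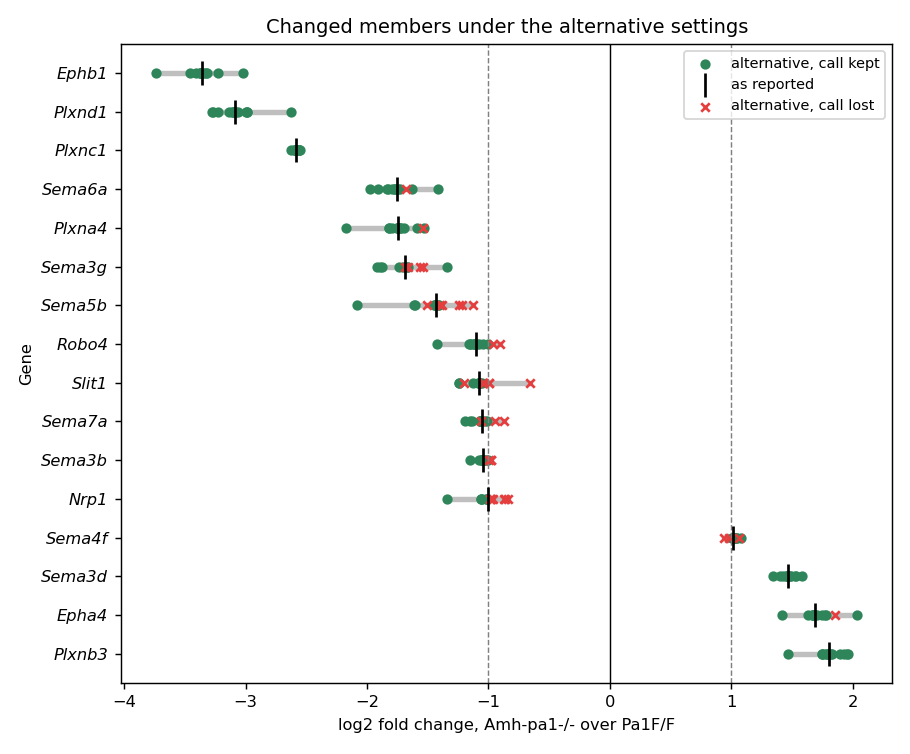
Log2 fold change of Amh-pa1-/- over Pa1F/F for the 16 changed members as reported (black bars) and under up to 14 alternative fits (points, glmTreat not drawn), with dashed lines at -1 and 1. Green points kept the call, red crosses lost it. Ephb1, Plxnd1, Plxnc1, Sema3d and Plxnb3 have green points only, and no point of any gene crosses 0.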

How the data were processed

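RNA-seq counts of 6 libraries were analysed, 3 from Pa1F/F and 3 from Amh-pa1-/- Sertoli cells, grouped by the sample titles. The authors made the libraries with a NEBNext Ultra kit, aligned reads to GRCm38 with HISAT2 2.1.0, counted reads per gene with HTSeq 0.6.0 and deposited the counts without normalization. The strand setting is not given in the sources used here. The same table holds the authors' own comparison (mean, fold change, p-values), which was not used.

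Members and gene lists were chosen with earlier results of these data known. Genes were filtered with filterByExpr (minimum count 10, minimum total count 15), scaled by TMM and tested with edgeR 4.0.16 (quasi-likelihood F-test, R 4.3.3). The Benjamini-Hochberg adjustment ran over all 14919 tested genes. A gene was called at an adjusted p under 0.05 and a 2-fold change or more in either direction, which are the study's thresholds, in place of its DEGseq test, which is not built on the spread between replicates. The standard error is the absolute log2 fold change divided by the square root of F. TMM centres most genes on no change. The steps were tested on simulated counts. Named were all members past the adjusted p, the most abundant member of each family, the 3 nearest outside the fold threshold and called pathway genes. Further members were named after their values were seen.

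The 14 alternatives for each gene were the Wald test of DESeq2 1.42.0, limma-voom (limma 3.58.1), edgeR with scaling by DESeq2's size factors or by library size alone, no filter, a minimum of 10 counts per library, a block for the replicate number, each of the 6 libraries left out, and the close pairs summed. The counts at 2-fold were also recomputed with edgeR's glmTreat. Exon lengths came from GENCODE M39 and promoters from RefSeq (GRCm38.p6). The GC box was searched after the data were seen. Python 3.11.15 drew the figures. Total counts from 13203757 to 16231443 set the precision, and floors cover counting error only, since reads without molecular identifiers are not independent molecules.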

Additional observations from a re-analysis of the deposited data

How the results depend on the processing

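Of the 16 changed members, 5 kept their call in the 14 alternatives run for each gene and 11 lost it in at least 1, and none of the 16 changed direction. *Sema3g* and *Sema6a* had 13 alternatives, since both fell below 10 counts in a library. When the close pairs were summed, which leaves 2 libraries a genotype, 3 members were lower and 2 higher at 2-fold, and 4 were lower and 2 higher at an adjusted p under 0.05. All of these are among the members that met the same threshold with 6 libraries. With glmTreat, edgeR's test against a 2-fold change, 3 members were lower (*Ephb1*, *Plxnc1* and *Plxnd1*) and 0 were higher (6 and 3 at an unadjusted p under 0.05), against 5 higher with DESeq2's Wald test. All tested genes had 2.05% lower and 1.56% higher with glmTreat, and 5.51% higher with DESeq2. The calls of *Sema3d* and *Plxnb3*, kept in the 14 other settings, were thus lost with glmTreat. With 1 library left out, the counts at 2-fold ran from 8 to 15 lower and from 3 to 4 higher, and those at an adjusted p under 0.05 from 13 to 22 lower and from 6 to 12 higher. Over all genes tested in these fits, from 5.24% to 7.92% were lower and from 4.41% to 5.60% higher at 2-fold, and from 11.1% to 21.2% were lower and from 11.5% to 21.9% higher at the adjusted p alone, each highest without Amh-pa1-/- replicate 3. Among unchanged members named as the most abundant of their family, the log2 fold change of *Ntn4* was 0.15 with the close pairs summed and ran from -0.37 to 0.0535 with 1 library left out. That of *Epha2* was 0.0054 with no filter on low counts and ran from -0.16 to 0.23 with 1 library left out. The cause of these reversals was not tested.

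The replicate numbers showed no clear pairing of the samples. These values could not exclude a pairing, since the library that stood apart had a different number in each genotype. The correlations of same-numbered deviations from the group means were 0.11, -0.16 and -0.18, and 0 of 6 libraries correlated best with its own number. The highest correlation, 0.21, was between Pa1F/F replicate 2 and Amh-pa1-/- replicate 3, the libraries that stood apart from their groups. With the replicate number as a block, 10 members were lower and 4 higher at 2-fold, and 14 were lower and 6 higher at an adjusted p under 0.05 (all tested genes 5.64% and 4.80%, and 12.6% and 12.8%). The 2 members whose call was lost with the block were *Slit1* (log2 fold change -0.997, edgeR adjusted p = 0.0506) and *Sema3g* (edgeR adjusted p = 0.0603). Depth limits the low members most, such as *Sema3g*, *Sema6a* and *Sema4f*, each with at most 53 counts in every library.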

Other observations

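Among the class 3 semaphorin genes, 3 lie within one stretch of chromosome 5 of GRCm38, with gaps of 536.5 and 422.7 kb, *Sema3d* from 12383385 to 12588948, *Sema3a* from 13125414 to 13602565 and *Sema3e* from 14025276 to 14256689. *Sema3a* had 55.3, 50.3 and 47.2 normalized counts in Pa1F/F replicates 1, 2 and 3, as compared with 97.6, 95.8 and 46.1 in the same order in Amh-pa1-/- cells. As with *Sema3e*, knockout replicates 1 and 2 lay above every control and replicate 3 did not. Without that replicate, the log2 fold changes of *Sema3d*, *Sema3a* and *Sema3e* were 1.58, 0.92 and 1.31 (edgeR adjusted p = 9.12e-05, 0.00382 and 0.00088), as compared with 1.47, 0.64 and 0.98 with it. *Sema3c*, farther along the chromosome from 17574281 to 17730268, had 681, 838 and 635 against 792, 805 and 1285, so that replicate 3 was its highest knockout library. *Robo4* and *Robo3* lie 0.6 kb apart on chromosome 9, and *Robo3* had 26.3, 29.0 and 26.2 normalized counts against 25.4, 21.4 and 10.02.

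*Ntn5* had 75.2, 52.3 and 75.5 normalized counts in Pa1F/F cells, as compared with 38.1, 49.6 and 2.004 in Amh-pa1-/- cells, so that replicate 3 was near 0 while the other knockout libraries were not. The gene that overlaps it on the other strand, *Sec1*, had 107, 96 and 94 counts in Pa1F/F libraries and 78, 79 and 3 in Amh-pa1-/- libraries, low in the same replicate. Without strand, reads of the pair cannot be told apart. These genes were chosen after their values were seen.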
